A study of Mus musculus with 6 samples.

Results

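The genes described here are 7 subunits of the transcription factor AP-1 (Jun, Junb, Jund, Fos, Fosl1, Fosl2 and Atf3) and the early response genes Egr1, Btg2 and Ier3. These 10 genes were picked by name, with earlier results of these data known. They were matched by symbol to the Ensembl identifiers of the deposited matrix, which lists 20756 genes. All 10 passed the filter on low values (at least 5 CPM in at least 3 libraries), along with the rest of the 9558 genes fitted. CPM (counts per 1000000) are the reads of a gene scaled to a fixed total per library.

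RNA was measured in mouse tumor organoids (MTOs), intestinal tumor epithelium grown as organoids, of strain C57BL/6. The sgPrkci group (replicates 10, 11 and 12) carried a CRISPR guide against Prkci, which encodes the atypical protein kinase PKCλ/ι, and the sgPrkcz group (replicates 13, 14 and 15) a guide against Prkcz, which encodes PKCζ. Both groups were untreated and grew in medium that held 50 ng/ml EGF, a growth factor whose receptor signals to AP-1. No MTOs with a control guide were analysed here, so "higher" and "lower" below mean sgPrkci relative to sgPrkcz. The series calls the libraries of each group biological replicates, and the sources used here do not say what separated them, how the sgPrkcz MTOs were derived or whether either group is 1 clone. The p-values therefore measure the spread between these libraries, which may be technical.

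AP-1 is a dimer of leucine zipper proteins. JUN proteins pair with each other, with FOS proteins or with members of the ATF family such as ATF3, whereas FOS proteins need a JUN partner to bind DNA. Growth factors, cytokines and stress switch these genes on within minutes through MAP kinases, serum response factor and CREB, and their transcripts usually disappear again quickly because AU-rich elements in the 3′ untranslated region recruit decay factors. In the intestinal epithelium AP-1 is known for its part in proliferation, in wound repair and in tumors downstream of RAS and WNT signaling.

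The libraries held 1593480 to 2815760 reads, so that 1 read was worth 0.355 to 0.628 CPM. The summed epithelial markers (6 of 6 listed) measured 3569 to 3991 CPM in sgPrkci, against 4392 to 4685 CPM in sgPrkcz. The immune markers (3 of 9 listed in the matrix, led by Cd68) summed to 7.94 to 12.4 CPM in sgPrkci, against 4.10 to 7.42 CPM in sgPrkcz. Fibroblast markers (6 of 7 listed) summed to at most 2.34 CPM with Col1a2 and Col3a1 at 0 throughout, and endothelial markers (3 of 4 listed) to at most 0.742 CPM with Kdr at 0. Ribosomal RNA reads (Gm42418 with the mitochondrial mt-Rnr1 and mt-Rnr2) took 21.2% to 24.0% of reads in sgPrkci and 17.6% to 19.4% in sgPrkcz. Across the fitted genes the log2 fold change had a median of -0.11 with CPM as deposited and 0.011 after rescaling by TMM factors, a scaling that sets the bulk of genes level between libraries. The part that these marker and composition differences play in the results below was not tested beyond the scaling alternatives.

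The targeted genes did not identify the groups. Prkci measured 53.9, 56.5 and 46.9 CPM in sgPrkci, against 72.3, 34.5 and 59.7 CPM in sgPrkcz (adjusted p = 0.939), and Prkcz was below the filter with 5 to 13 reads per library. A small deletion at a guide's cut site need not change reads from the 3′ end, so these values check no label. In a single place the study's own material names the same libraries the other way round, and with those names every direction given here would reverse.

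Of the 10 genes, 5 rose in sgPrkci, 0 fell and 5 were short of the threshold (limma, adjusted p under 0.05). Among all fitted genes 40.9% passed, 14.4% higher and 26.5% lower. The genes that rose were Jun, Jund, Atf3, Btg2 and Ier3. The median log2 fold change of the 10 genes was 0.38, beside -0.11 for all fitted genes. As the 10 genes were chosen with earlier results known, the difference from all fitted genes is not independent of that choice and was not tested. In 6 of the 10 genes every sgPrkci library lay above every sgPrkcz library, as it did in 18.2% of all fitted genes, and in 0 of the 10 did every sgPrkci library lie below, as in 31.8% of all fitted genes. With TMM factors 7 of the 10 were higher, adding Junb and Egr1, and 0 lower, beside 21.3% higher and 19.3% lower among 9539 genes. In bulk RNA, fewer cells that express a gene and less of its RNA per cell cannot be told apart.

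**Figure D1:**
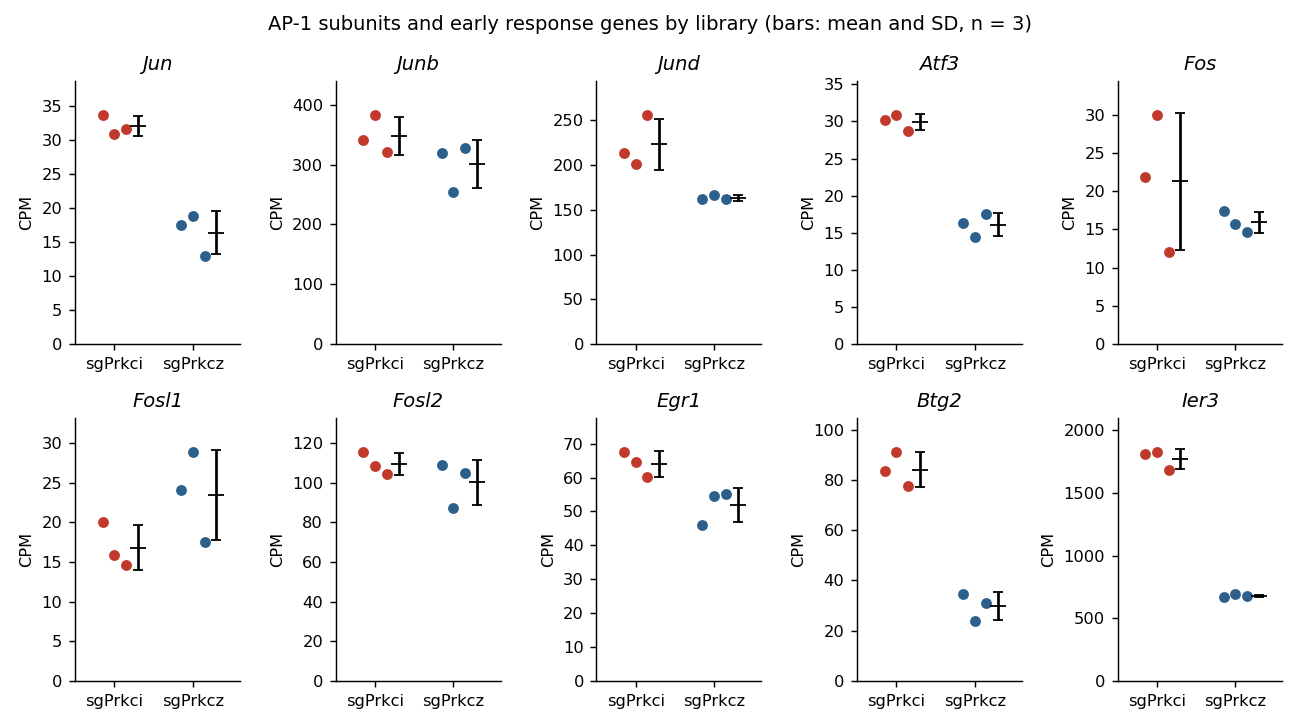
CPM (vertical axes, each starting at 0) of the 10 genes in the sgPrkci libraries (red, replicates 10, 11 and 12 from left to right) and the sgPrkcz libraries (blue, replicates 13, 14 and 15), with the mean and SD as bars (n = 3). The groups stand apart for Jun, Jund, Atf3, Egr1, Btg2 and Ier3 and overlap for Junb, Fos, Fosl1 and Fosl2.

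Short stretches upstream of the start are shown for the 4 genes with the largest rises and for Fos, which did not pass, so that their proximal promoters can be read beside their values. Windows of 250 bases before the RefSeq start (GRCm38.p6) were at hand for 8 of the 10 genes. They were searched on both strands for the AP-1 site TGANTCA, the CREB and ATF site TGACGTCA and its variants TGACATCA and TGACGTAA, the core TGACGT (contained in TGACGTCA and TGACGTAA), the TATA box TATAAA and the NF-κB-type site GGAATTTCC. Capitals mark the matches, and each line runs 5′ to 3′ along the gene's own strand. Jun lies at chr4:95052223-95052472 (minus strand), Atf3 at chr1:191183334-191183583 (minus), Btg2 at chr1:134079156-134079405 (minus), Ier3 at chr17:35821463-35821712 (plus) and Fos at chr12:85473640-85473889 (plus). The Atf3 window precedes an internal start, 34706 bases from the outermost start in GENCODE, and the last 29 bases of the Ier3 window fall after the GENCODE start. Among the windows searched but not shown, that of Jund precedes a start 1210 bases from the GENCODE start, and that of Fosl2 a start 671 bases from it.
Jun: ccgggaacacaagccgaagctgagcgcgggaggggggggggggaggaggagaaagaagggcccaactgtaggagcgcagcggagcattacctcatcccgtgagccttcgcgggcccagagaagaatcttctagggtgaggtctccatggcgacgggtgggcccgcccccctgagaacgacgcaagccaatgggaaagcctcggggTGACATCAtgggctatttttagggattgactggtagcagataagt
Atf3: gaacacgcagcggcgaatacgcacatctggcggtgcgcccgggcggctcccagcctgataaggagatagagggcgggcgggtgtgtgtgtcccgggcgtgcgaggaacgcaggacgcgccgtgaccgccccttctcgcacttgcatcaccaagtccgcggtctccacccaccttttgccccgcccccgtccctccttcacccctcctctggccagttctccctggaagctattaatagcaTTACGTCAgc
Btg2: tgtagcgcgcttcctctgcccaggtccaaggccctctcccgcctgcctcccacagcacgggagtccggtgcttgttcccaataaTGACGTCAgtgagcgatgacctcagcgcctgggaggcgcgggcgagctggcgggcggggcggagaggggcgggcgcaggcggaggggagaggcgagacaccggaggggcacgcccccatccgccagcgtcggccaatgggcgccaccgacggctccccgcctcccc
Ier3: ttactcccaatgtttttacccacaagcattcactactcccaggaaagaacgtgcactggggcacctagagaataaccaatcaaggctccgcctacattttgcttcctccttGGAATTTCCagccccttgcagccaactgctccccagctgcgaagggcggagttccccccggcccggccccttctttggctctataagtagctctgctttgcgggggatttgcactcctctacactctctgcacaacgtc
Fos: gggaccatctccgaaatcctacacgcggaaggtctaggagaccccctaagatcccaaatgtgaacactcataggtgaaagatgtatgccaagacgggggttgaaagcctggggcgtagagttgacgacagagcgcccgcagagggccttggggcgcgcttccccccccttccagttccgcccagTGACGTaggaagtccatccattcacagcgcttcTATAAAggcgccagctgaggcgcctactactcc

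The core TGACGT was in 3 of the 8 windows (Fos, Atf3 and Btg2) and in 6.47% of 32851 windows of the same length from all genes. Btg2 held the full TGACGTCA 166 bases before the start, a motif of 1.55% of all windows. In Atf3 the variant TGACGTAA was read on the opposite strand as TTACGTCA, 10 bases before the internal start, and 0.448% of all windows held it. Jun held TGACATCA 45 bases before its start (2.93% of all windows), the site through which Jun is known to regulate its own promoter. Fos had the core at 66 bases and a TATA box at 33 bases before the start, and 12.4% of all windows held this TATA box. Ier3 held GGAATTTCC at 139 bases, which 0.286% of all windows held, and is a known target of NF-κB. Some of these motifs, such as that of Jun, were already known for the gene in question. Their rarity among all windows is therefore not read as a result. TGANTCA was in 0 of the 8 windows and in 6.75% of all windows. These matches are letters in a window and not measured binding. None of the 7 motifs was in the windows of all 5 genes that rose, but only exact strings in short windows were searched. For Jund and Atf3 these windows lie away from the GENCODE start. Whether the genes that rose share a promoter element was therefore not tested.

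Jun, Junb and Jund encode the JUN proteins, the subunits that every AP-1 dimer of the classical type contains. Jun (chromosome 4, 95049034 to 95052222, minus strand, GENCODE M21 on GRCm38) encodes c-JUN, a target of the JUN N-terminal kinases. It measured 33.6, 30.8 and 31.6 CPM in sgPrkci, against 17.4, 18.8 and 12.9 CPM in sgPrkcz. The groups did not overlap. The counting intervals (95%, exact Poisson) of the nearest libraries did, with 23.8 to 39.2 CPM in sgPrkci replicate 11 and 12.7 to 26.9 CPM in sgPrkcz replicate 14. Means were 32.0 ± 1.41 CPM in sgPrkci and 16.4 ± 3.11 CPM in sgPrkcz (SD, n = 3 each), a log2 fold change of 0.94 ± 0.18 (SE; 95% interval 0.57 to 1.31, adjusted p = 0.000201). These values rest on 22 to 89 reads per library. Junos, an antisense RNA that overlaps Jun, stayed at or below 0.585 CPM.

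Junb (chromosome 8, 84974484 to 84978718, minus strand), whose protein is a weaker activator than c-JUN and can oppose it, was the most abundant of the 7 subunits. Its values were 341.3, 382.0 and 320.3 CPM in sgPrkci, against 319.3, 254.8 and 327.1 CPM in sgPrkcz. The ranges overlapped, since sgPrkcz replicate 15 lay above sgPrkci replicate 12. The log2 fold change of 0.22 ± 0.09 (SE) did not pass (95% interval 0.02 to 0.41, adjusted p = 0.0663). Its call turned with the scaling, with 0.34 and adjusted p = 0.00411 under TMM. It also passed without sgPrkci replicate 12 (0.27, adjusted p = 0.0410), without sgPrkcz replicate 13 (0.26, adjusted p = 0.0442) and without sgPrkcz replicate 15 (0.28, adjusted p = 0.0298). Without sgPrkcz replicate 14, the lowest library, the fold change was 0.10 (adjusted p = 0.384). The annotated gene also has a noncoding transcript whose 3′ end overlaps Prdx2 on the other strand by 351 bases, and Prdx2 measured 135.7 to 144.8 CPM in sgPrkci, against 133.0 to 139.3 CPM in sgPrkcz (adjusted p = 0.646). No other gene lies over the 3′ end of the coding Junb transcript.

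Jund (chromosome 8, 70698949 to 70700616, plus strand) encodes the JUN protein that resting cells hold in steady amounts and that menin binds. It measured 213.1, 201.3 and 255.3 CPM in sgPrkci, against 161.7, 166.9 and 161.5 CPM in sgPrkcz. All sgPrkci libraries were above all sgPrkcz libraries, with replicate 12 highest. The log2 fold change was 0.44 ± 0.09 (SE; 95% interval 0.25 to 0.63, adjusted p = 0.000512), smaller than that of Jun. Means were 223.2 ± 28.4 CPM in sgPrkci and 163.4 ± 3.08 CPM in sgPrkcz (SD, n = 3 each).

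Atf3 (chromosome 1, 191170296 to 191218039, minus strand) encodes a stress-induced leucine zipper protein that pairs with JUN proteins and represses many of its targets. It measured 30.2, 30.8 and 28.8 CPM in sgPrkci, against 16.3, 14.4 and 17.6 CPM in sgPrkcz. The groups did not overlap, on 23 to 81 reads per library. The counting intervals (95%, exact Poisson) of the nearest libraries did overlap. They ran over 22.8 to 35.8 CPM in sgPrkci replicate 12 and 11.8 to 25.1 CPM in sgPrkcz replicate 15. Means were 29.9 ± 1.05 CPM in sgPrkci and 16.1 ± 1.57 CPM in sgPrkcz (SD, n = 3 each), and the log2 fold change was 0.86 ± 0.17 (SE; 95% interval 0.50 to 1.21, adjusted p = 0.000334).

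None of the 3 FOS genes passed the test. Fos (chromosome 12, 85473890 to 85477273, plus strand), the prototype immediate early gene, measured 21.9, 29.9 and 12.1 CPM in sgPrkci, against 17.4, 15.7 and 14.6 CPM in sgPrkcz. The sgPrkci libraries bracketed the sgPrkcz libraries, with replicate 11 highest and replicate 12 lowest of all 6. The counting intervals of these 2 libraries (95%, exact Poisson) ran over 23.0 to 38.2 CPM in replicate 11 and 8.36 to 16.9 CPM in replicate 12, so they differed by more than counting error. The intervals cover counting error only. The log2 fold change was 0.31 ± 0.24 (SE; 95% interval -0.18 to 0.81, adjusted p = 0.313), and it rested on single sgPrkci libraries. Without replicate 11 it was 0.035 with adjusted p = 0.926, and without replicate 12 it was 0.66 with adjusted p = 0.0232.

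Fosl1 (chromosome 19, 5447547 to 5455946, plus strand) encodes FRA-1, a subunit without the activation domain of c-FOS that is raised in many invasive carcinomas. Its values were 19.99, 15.9 and 14.6 CPM in sgPrkci, against 24.1, 28.9 and 17.6 CPM in sgPrkcz. It was the only one of the 10 genes with a negative fold change, and the groups overlapped through sgPrkcz replicate 15. The log2 fold change of -0.45 ± 0.20 (SE) missed the threshold (95% interval -0.86 to -0.03, adjusted p = 0.0821), and passed without sgPrkcz replicate 15 (-0.63, adjusted p = 0.0182). Without sgPrkcz replicate 14, the highest library, it was -0.29 (adjusted p = 0.310). The 3′ end of Fosl1 lies inside Ccdc85b on the other strand, a gene listed at 0 in all 6 libraries. Whether the counting used strand is not stated in any source used here, so reads of this pair cannot be told apart.

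Fosl2 (chromosome 5, 32135801 to 32157842, plus strand), which encodes FRA-2, was the most abundant FOS transcript. It measured 115.4, 108.4 and 104.4 CPM in sgPrkci, against 108.7, 87.2 and 104.7 CPM in sgPrkcz. The ranges overlapped, and the log2 fold change was 0.13 ± 0.10 (SE; 95% interval -0.08 to 0.35, adjusted p = 0.334). Without sgPrkcz replicate 14, the lowest library, it was 0.035 (adjusted p = 0.823).

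**Figure D2:**
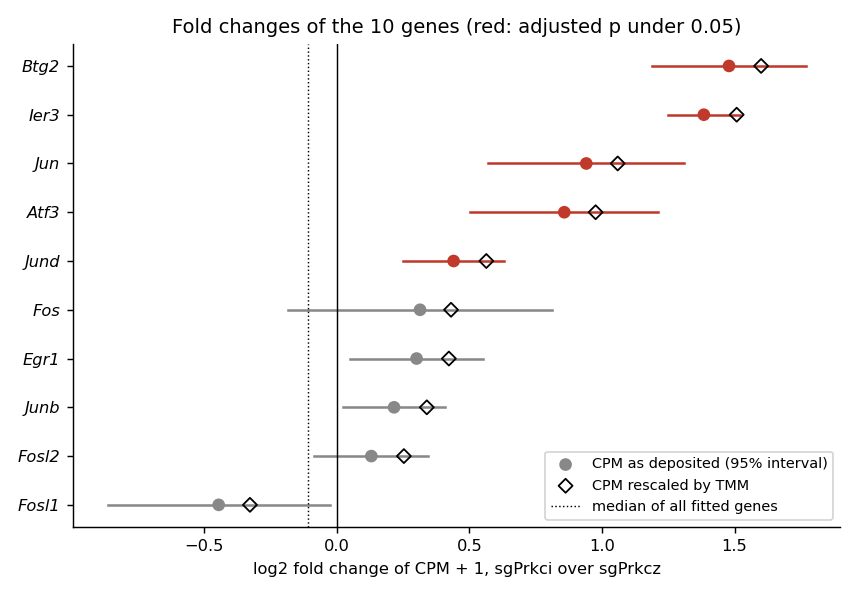
Log2 fold change of CPM + 1, sgPrkci over sgPrkcz (horizontal axis), for each of the 10 genes, with 95% intervals as lines, filled points for CPM as deposited (red where adjusted p was under 0.05) and open diamonds after TMM rescaling. Btg2 (1.48) and Ier3 (1.38) lie farthest right, Fosl1 (-0.45) is the only gene left of 0, and the dotted line marks the median of all fitted genes (-0.11).

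Since 3′ libraries yield reads from near the transcript end, CPM of different genes were added without dividing by length. The sums may hold duplicate reads, as any collapsing of these is not stated in the sources used here. The FOS sum includes Fosl1, whose reads cannot be told apart from those of Ccdc85b. The JUN genes summed to 588.0, 614.2 and 607.3 CPM in sgPrkci, against 498.4, 440.5 and 501.5 CPM in sgPrkcz. The groups did not overlap, with means of 603.2 ± 13.6 CPM in sgPrkci and 480.1 ± 34.3 CPM in sgPrkcz (SD, n = 3 each; ratio 1.26, 2-sided exact permutation p = 0.1, the smallest that 3 against 3 libraries allow). The FOS genes summed to 157.3, 154.1 and 131.0 CPM in sgPrkci, against 150.2, 131.8 and 136.9 CPM in sgPrkcz. These overlapped (ratio of means 1.06, exact permutation p = 0.5). Over all 7 subunits the sum was 780.6 ± 16.6 CPM in sgPrkci and 635.9 ± 42.8 CPM in sgPrkcz (SD, n = 3 each; exact permutation p = 0.1).

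The ratio of JUN to FOS transcripts was 3.74, 3.98 and 4.63 in sgPrkci and 3.32, 3.34 and 3.66 in sgPrkcz (exact permutation p = 0.1). Every sgPrkci ratio lay above every sgPrkcz ratio, but the nearest were close, at 3.74 in sgPrkci replicate 10 and 3.66 in sgPrkcz replicate 15. Whether they differed by more than counting error was not tested. As a share of the 7 subunits, Junb made up 44.5% in sgPrkci and 47.1% in sgPrkcz, and Jund 28.7% in sgPrkci and 25.8% in sgPrkcz. Jun was 4.10% ± 0.236 of the pool in sgPrkci and 2.60% ± 0.623 in sgPrkcz (SD, n = 3 each), and Atf3 was 3.83% ± 0.0737 in sgPrkci and 2.53% ± 0.127 in sgPrkcz. Fosl1 had the opposite pattern, with 2.15% ± 0.369 in sgPrkci and 3.74% ± 1.13 in sgPrkcz. The shares of Jun, Atf3 and Fosl1 did not overlap between groups (exact permutation p = 0.1 each, 0.233 after Benjamini-Hochberg adjustment over the 7 shares). For Fosl1 the separation was slight. The nearest shares were 2.58% in sgPrkci replicate 10 and 2.68% in sgPrkcz replicate 15, where Fosl1 had 30 reads, and its CPM overlapped.

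**Figure D3:**
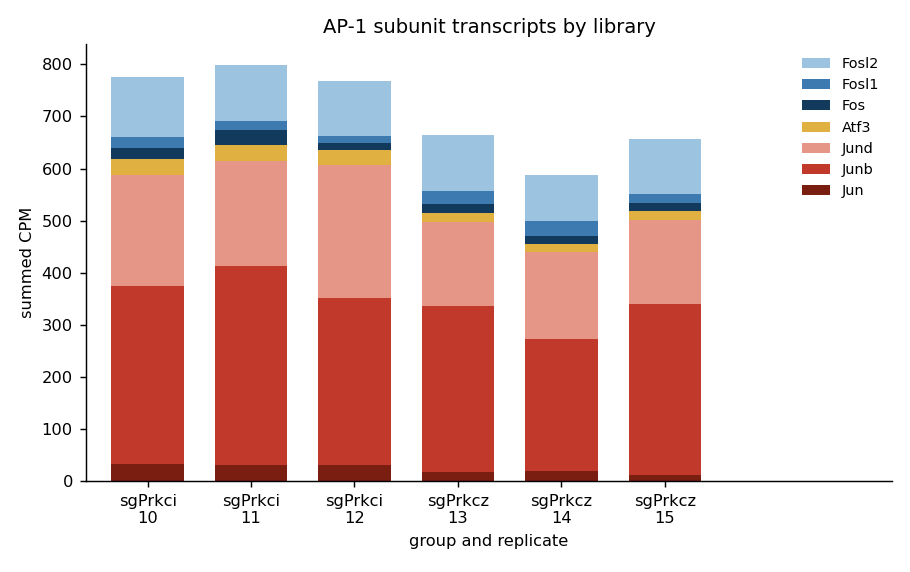
Summed CPM (vertical axis, from 0) of the 7 AP-1 subunit genes in each library, sgPrkci replicates 10 to 12 on the left and sgPrkcz replicates 13 to 15 on the right, stacked by gene. The sgPrkci bars reach 767.1 to 799.1 CPM and the sgPrkcz bars 586.8 to 665.0 CPM, and Junb and Jund (red and pink) form most of every bar.

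Of the early response genes, Btg2 and Ier3 held the largest changes of the 10, while Egr1 did not. Ier3 (chromosome 17, 35821684 to 35822923, plus strand), an early response gene of NF-κB, p53 and growth factor signaling whose protein acts on cell survival, was the most abundant of the 10. It measured 1814.5, 1826.1 and 1681.3 CPM in sgPrkci, against 670.5, 689.7 and 675.2 CPM in sgPrkcz. The lowest sgPrkci library exceeded the highest sgPrkcz library by far. Means were 1774 ± 80.5 CPM in sgPrkci and 678.5 ± 9.99 CPM in sgPrkcz (SD, n = 3 each), a log2 fold change of 1.38 ± 0.07 (SE; 95% interval 1.25 to 1.52, adjusted p = 2.67e-13). With 1099 to 4811 reads per library, it was the most deeply counted of the 10.

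Btg2 (chromosome 1, 134075170 to 134079120, minus strand) encodes an antiproliferative protein, induced by p53 and growth factors, that brings the CCR4-NOT deadenylase to transcripts. It measured 83.7, 91.1 and 77.4 CPM in sgPrkci, against 34.5, 23.8 and 31.0 CPM in sgPrkcz. Again the groups were far apart, and the log2 fold change of 1.48 ± 0.14 (SE) was the largest of the 10 (95% interval 1.19 to 1.77, adjusted p = 2.17e-08). Means were 84.1 ± 6.83 CPM in sgPrkci and 29.8 ± 5.43 CPM in sgPrkcz (SD, n = 3 each).

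The genes with the profile most like that of Btg2 over the 6 libraries were Spin4, A630095E13Rik and Fut8, taken among fitted genes of at least median level. Their root mean square differences from Btg2 in centred log2(CPM + 1) were 0.112, 0.115 and 0.133. Fut8, the enzyme of core fucosylation, measured 89.4, 106.5 and 85.2 CPM in sgPrkci, against 46.0, 29.5 and 31.0 CPM in sgPrkcz.

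Egr1, a zinc finger factor switched on through serum response factor within minutes of growth factor addition, was at the edge of the threshold. Its values were 67.5, 64.5 and 60.0 CPM in sgPrkci, against 46.0, 54.6 and 55.0 CPM in sgPrkcz. The groups did not overlap, yet the log2 fold change of 0.30 ± 0.12 (SE; 95% interval 0.05 to 0.55) had an adjusted p = 0.0503. With TMM factors it was 0.42 (adjusted p = 0.00704). It passed without sgPrkcz replicate 14 (0.34, adjusted p = 0.0484) or 15 (0.35, adjusted p = 0.0465). It did not pass without sgPrkcz replicate 13, the lowest library (0.22, adjusted p = 0.199). Nor did it without sgPrkci replicate 10 (0.26, adjusted p = 0.167), 11 (0.30, adjusted p = 0.106) or 12 (0.35, adjusted p = 0.0581).

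Sites of the AU-rich type are shown for the genes that rose most and for Fos, as they are the feature by which early response transcripts are known to be cleared. The pentamer ATTTA and the longer TATTTAT were counted in the 3′ untranslated region of the annotated coding transcript (GENCODE M21, GRCm38). Each line gives 29 bases of that region, 5′ to 3′ on the gene's strand, with ATTTA in capitals, and the site is on the chromosome given for the gene above.
Ier3: taattaatATTTAtgtATTTAtgtatatc
Btg2: aATTTAtttgtagatgtgtgcaatATTTA
Jun: atcATTTAtaatcataggaaagATTTAgt
Atf3: aaaatattacttATTTAtcccagtattcc
Fos: tgtgttttcaATTTATTTAttaagatgga

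TATTTAT was found in 8 of the 10 genes, beside 32.0% of 9142 fitted protein-coding genes (2921 genes). The median density of ATTTA was 2.40 per kilobase in the 10 genes, whose median region length was 1000.5 bases, and 1.41 in the fitted protein-coding genes, whose median region length was 1230 bases. These shares were not tested. Ier3 had 5 pentamers in 613 bases, a density above that of 98.5% of the fitted protein-coding genes, and Fos had 4 in 815 bases. Whether the density of pentamers is related to the changes between groups was not tested. Junb and Egr1 held 2 pentamers each and 0 copies of TATTTAT. Neither motif was measured as a site of decay here.

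The other genes of the pathway came from lists of known members, which share the genes Zfp36, Zfp36l1 and Zfp36l2 between the immediate early and the AU-rich lists. The counts of every list stand beside 14.4% higher and 26.5% lower among all fitted genes. Of the other AP-1 dimer partners 3 of 7 were fitted, 1 higher and 1 lower. Jdp2, whose protein pairs with JUN and represses AP-1 sites, measured 30.6, 34.1 and 36.6 CPM in sgPrkci, against 70.5, 83.5 and 64.9 CPM in sgPrkcz. It was lower in all sgPrkci libraries (log2 fold change -1.09 ± 0.13 SE, adjusted p = 8.99e-07). Atf2, a JUN partner activated by p38 and JNK, rose by 0.37 ± 0.13 (SE) on the log2 scale (adjusted p = 0.0292) although its ranges overlapped, and Atf7 did not pass (0.07). Atf2 no longer passed without sgPrkci replicate 11 (0.32, adjusted p = 0.103) or 12 (0.32, adjusted p = 0.105), or without sgPrkcz replicate 14 (0.33, adjusted p = 0.0847) or 15 (0.28, adjusted p = 0.125). Fosb did not exceed 1.48 CPM in any library.

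Of 36 other immediate early genes 29 were fitted, of which 11 were higher, 2 lower and 16 did not pass. Their median log2 fold change was 0.37, close to the 0.38 of the 10 genes above. This list too was chosen with earlier results known, so the likeness is no independent result. Zfp36l1, which encodes a protein that binds AU-rich elements and promotes decay, measured 274.6, 273.2 and 271.0 CPM in sgPrkci, against 136.1, 100.4 and 142.8 CPM in sgPrkcz (log2 fold change by limma 1.12, adjusted p = 1.92e-08). Btg1, the relative of Btg2, measured 125.2, 92.5 and 127.5 CPM in sgPrkci, against 57.9, 64.0 and 62.0 CPM in sgPrkcz (0.88, adjusted p = 3.71e-06). Both were thus above every sgPrkcz library in all sgPrkci libraries. Dusp1, a phosphatase that switches MAP kinases off, rose by 0.65 (adjusted p = 0.000527), and Errfi1, an inhibitor of the EGF receptor, by 0.37 (adjusted p = 0.00111), both on the log2 scale. With TMM factors 16 were higher and 1 lower. The 2 that fell were Zfp36l2 (-0.45) and Klf4 (-0.22), a factor of epithelial differentiation, and Klf4 did not pass under TMM (adjusted p = 0.334).

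The upstream factors are read beside the 14.4% higher and 26.5% lower among all fitted genes. Of 12 genes for serum response factor, its ternary complex partners, CREB and their coactivators, 10 were fitted, 0 higher and 1 lower, with a median log2 fold change of -0.05. The gene that fell was Crebbp, a histone acetyltransferase that CREB recruits (-0.30 ± 0.08 SE, adjusted p = 0.00712), and it did not pass under TMM (adjusted p = 0.106). Srf measured 21.1, 21.95 and 17.4 CPM in sgPrkci, against 25.2, 22.6 and 24.0 CPM in sgPrkcz, without passing (adjusted p = 0.280). Creb1 (0.16) and Elk1 (-0.36) did not pass either. With TMM factors 1 was higher, Creb1 (adjusted p = 0.0134), 0 were lower and the median was 0.069.

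Of 20 genes of the MAP kinase cascades 16 were fitted, 3 higher and 3 lower, beside 40.9% called in either direction among all fitted genes. Mapk3, which encodes ERK1, measured 251.9, 223.2 and 220.5 CPM in sgPrkci, against 108.3, 130.5 and 118.8 CPM in sgPrkcz (log2 fold change by limma 0.96 ± 0.09 SE, adjusted p = 3.21e-08). In contrast, Map2k4, a kinase of JNK, was lower (-0.44, adjusted p = 0.00127), as was Mapk9, which encodes JNK2 (-0.74, adjusted p = 0.00427). Map3k7, the kinase TAK1 of cytokine signaling, was higher (0.40, adjusted p = 0.00630). The list held changes in both directions, and its median was -0.07. With TMM factors the median was 0.050, and 5 genes passed as higher and 2 as lower.

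Of 6 genes for turnover of JUN or binding of JUND, 1 was lower and 5 did not pass. Det1, part of a ubiquitin ligase for c-JUN, measured 4.90, 3.74 and 3.20 CPM in sgPrkci, against 8.90, 13.8 and 10.5 CPM in sgPrkcz. It was the gene counted as lower, but all sgPrkci values lay under the 5 CPM filter, so it was fitted only through the group in which it was high and its call is not read as a result. With a filter of 10 CPM it was not fitted, which leaves 0 lower in the list. Its partner Cop1 did not pass (0.29, adjusted p = 0.0820), nor did Fbxw7, another ligase component for c-JUN (-0.17, adjusted p = 0.196), or Cops5, a coactivator of JUN (0.22, adjusted p = 0.0767). Under TMM Cop1 (0.41, adjusted p = 0.0145) and Cops5 (0.34, adjusted p = 0.00606) were higher, and both passed without sgPrkcz replicate 13 (Cop1 0.38, adjusted p = 0.0423, and Cops5 0.29, adjusted p = 0.0286).

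Of 17 genes often described as AP-1 targets 10 were fitted, 4 higher and 2 lower, with a median log2 fold change of 0.09. Cd44, the hyaluronan receptor, measured 1827.4, 1594.5 and 1524.6 CPM in sgPrkci, against 1013.9, 901.2 and 929.8 CPM in sgPrkcz (0.79, adjusted p = 2.1e-08). Plau, the urokinase, was also higher (1.25, adjusted p = 9.3e-05). In contrast, Ccnd1, which encodes cyclin D1, measured 649.1, 549.2 and 600.5 CPM in sgPrkci, against 999.5, 968.9 and 984.2 CPM in sgPrkcz (-0.72, adjusted p = 5.13e-08). Timp1, an inhibitor of matrix metalloproteinases, measured 3.02, 2.34 and 4.62 CPM in sgPrkci, against 8.53, 11.3 and 11.7 CPM in sgPrkcz. It too passed the filter only through sgPrkcz, so its call is not read as a result, and with a filter of 10 CPM it was not fitted, which leaves 1 lower in the list. The targets that passed lay in both directions also without Timp1, and with TMM factors 6 were higher and 2 lower.

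Btg2 acts through the CCR4-NOT complex, and of 12 genes of that complex and its TOB partners 1 was higher, 1 lower and 10 did not pass. The catalytic subunit Cnot6 was lower (-0.37, adjusted p = 0.000510) and its paralog Cnot6l higher (0.25, adjusted p = 0.0229). Cnot6l no longer passed without sgPrkci replicate 10 (0.19, adjusted p = 0.138) or 11 (0.24, adjusted p = 0.0634), or without sgPrkcz replicate 15 (0.21, adjusted p = 0.0890). The subunit Cnot7, which BTG proteins bind, did not pass (-0.25, adjusted p = 0.0540) except without sgPrkcz replicate 14 (-0.33, adjusted p = 0.0149), and neither did Tob2 (-0.27, adjusted p = 0.171).

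Of 8 genes for proteins that bind AU-rich elements, 4 were higher, 2 lower and 2 did not pass, beside 14.4% higher and 26.5% lower among all fitted genes. With TMM factors 5 were higher and 1 lower. Besides Zfp36l1, Zfp36, which encodes the decay factor tristetraprolin, was higher (0.65, adjusted p = 0.00535), with 61.1, 66.3 and 37.6 CPM in sgPrkci, against 34.1, 27.6 and 40.4 CPM in sgPrkcz, where sgPrkci replicate 12 lay within the sgPrkcz range. Hnrnpd, which encodes AUF1, was higher (0.39, adjusted p = 0.000969) and Zfp36l2 lower (adjusted p = 0.00616).

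Heat shock genes are known to respond to handling and proteotoxic stress. Of 10 genes 8 were fitted, 1 higher and 4 lower, with a median log2 fold change of -0.27. Hspa1b, the inducible HSP70, measured 87.5, 78.0 and 63.2 CPM in sgPrkci, against 51.5, 39.5 and 31.0 CPM in sgPrkcz (0.91, adjusted p = 6.92e-05). Hsp90aa1 (-0.70), Hspa8 (-0.70) and Hspd1 (-0.72), which encode chaperones, were lower. With TMM factors 2 of the list were higher and 3 lower. The part of stress during harvest in the values of Jun, Atf3 and Ier3 was not tested.

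**Figure D4:**
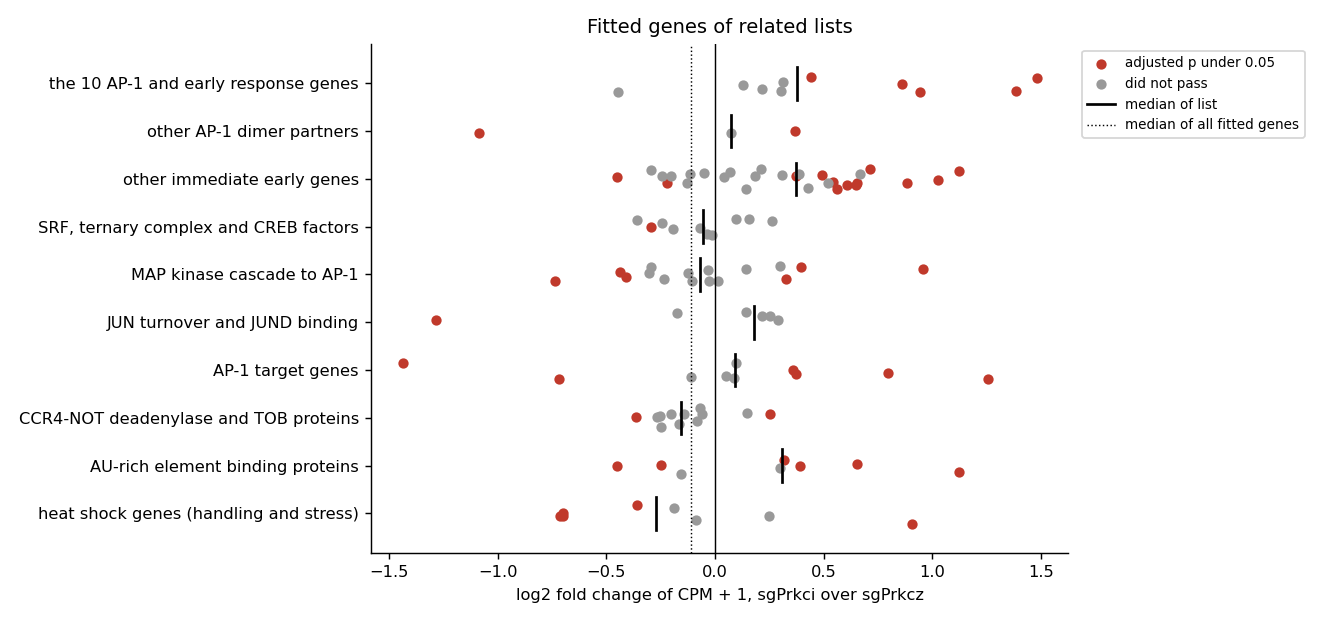
Log2 fold change of CPM + 1, sgPrkci over sgPrkcz (horizontal axis), of every fitted gene in the 10 genes and the 9 related lists (rows), red where adjusted p was under 0.05, with each list's median as a black bar and the median of all fitted genes (-0.11) as a dotted line. The 10 genes and the other immediate early genes have medians of 0.38 and 0.37, while those of the upstream factors (-0.05) and MAP kinases (-0.07) lie between 0 and that of all genes.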

How the data were processed

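RNA of 6 MTO libraries (3 sgPrkci, 3 sgPrkcz, grouped by their labels) was made into QuantSeq 3′ libraries and sequenced single-end. The deposited values are CPM, made by the authors on genome build GRCm38 per the labels. The aligner, counter, annotation release, strand setting and any collapsing on molecular identifiers are not stated in any source used here. In every library 100% of values were whole multiples of the value of 1 read within 0.01, so whole reads were recovered, and edgeR called 2011 genes higher and 1930 lower on them. Symbols (20675 of 20756 identifiers) and coordinates came from GENCODE M21, promoter windows from RefSeq.

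The test was limma 3.58.1 (R 4.3.3, intensity trend) on log2(CPM + 1) over the 9558 genes that reached 5 CPM in 3 or more libraries, adjusted by Benjamini-Hochberg at 0.05, and tested on simulated data. Such fold changes understate the change of low genes. Single values were compared by exact permutation (SciPy 1.17.1). The 10 genes and all lists were chosen with earlier results of these data known. All 10 are named, with up to 4 genes of smallest adjusted p from each list and the 3 genes most like the largest riser. Klf4, named as 1 of only 2 that fell, and the genes of the closing observations were chosen after their values were seen. Alternatives were TMM, quantile normalization, leaving out rRNA-like or mitochondrial and ribosomal protein genes, no trend, no filter or 10 CPM, pseudocounts of 0.1 and 10, edgeR 4.0.16, DESeq2 1.42.0 and each library left out. No column was left unused.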

Additional observations from a re-analysis of the deposited data

How the results depend on the processing

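Over 17 alternatives Jun, Jund, Atf3, Btg2 and Ier3 passed in all 17 and Fosl2 in 0. Egr1 passed in 10 and Junb in 8, while Fos passed only without sgPrkci replicate 12 and Fosl1 only without sgPrkcz replicate 15. Of the 10 genes 5 to 7 were higher with a library left out, and 0 to 1 lower. No paired analysis was possible because the groups share no replicate number. The difference in summed JUN CPM (123.01, and 103.2 to 133.7 with a library left out) was 169.6 with TMM and 188.2 without rRNA-like genes, that in FOS CPM (7.85, and 2.95 to 16.1) was 20.1 with TMM, and that over all AP-1 subunits (144.7, and 120.1 to 159.2) was 205.4 and 225.6. Not all of the 125 genes of the other lists were fitted. Of those fitted, 23 higher became 37 with TMM, 14 without the trend, 35 with edgeR and 17 to 28 with a library left out. The 16 lower became 8 with DESeq2 and 13 to 16 with a library left out. Over all genes 1377 were higher and 2534 lower, with TMM 2032 and 1837, with quantile normalization 1854 and 1926, and 1059 to 1382 and 2110 to 2364 with a library left out. DESeq2 called 1350 lower. The fold change of Prkci (-0.02, no call) changed sign with TMM (0.10), quantile normalization (0.074), rRNA-like genes left out (0.050), DESeq2 (0.010), and without sgPrkci replicate 12 (0.056), sgPrkcz replicate 13 (0.20) or sgPrkcz replicate 15 (0.062), within a range of -0.32 to 0.20 with a library left out. Among the other genes named, Atf2, Cnot6l and Zfp36 did not pass without the trend, nor Map2k4, Mapk9, Zfp36l2 and Crebbp with DESeq2, nor Crebbp with edgeR. Apart from fewer libraries where they were left out, the cause of these changes was not tested. Fos, Fosl1, Jun and Atf3 rest on 22 to 89 reads per library, and their intervals are the widest of the 10.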

Other observations

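Some early response genes other than those above also differed between libraries of the same group. Whether they did so by more than counting error was not tested. Ccn2, a YAP and serum response target, measured 13.6, 35.5 and 10.3 CPM in sgPrkci, against 8.53, 3.77 and 14.6 CPM in sgPrkcz. Its highest value was in sgPrkci replicate 11, where Fos was highest too, but its lowest was in sgPrkcz replicate 14. It passed as higher although its ranges overlapped (log2 fold change by limma 1.03, adjusted p = 0.0295). Myc measured 24.5, 31.8 and 15.3 CPM in sgPrkci, against 29.7, 23.2 and 19.3 CPM in sgPrkcz, again highest in replicate 11 and lowest in replicate 12. Ier2 did not share this order, with 21.5, 10.3 and 17.8 CPM in sgPrkci, against 20.03, 16.9 and 10.5 CPM in sgPrkcz. These 3 genes were chosen after their values were seen. Among the immediate early genes below the filter, Ccn1 measured 0.377, 3.74 and 0.355 CPM in sgPrkci, against 2.60, 2.51 and 2.93 CPM in sgPrkcz, and Egr2 did not exceed 0.628 CPM.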
